A study of Mus musculus with 4 samples.

Results

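The genes described here are 50 mouse genes of mitosis and the G2/M stage of the cell cycle, listed by name for their roles as mitotic kinases, kinesins, kinetochore proteins, condensin subunits and cytokinesis factors. All 50 of 50 were found by symbol among the 35275 gene identifiers of the deposited tables, and all 50 had a mean of at least 1 CPM (counts scaled to the library's total), so no member was left out. Ttk was the lowest, with a mean of 4.59 CPM. The lowest count of any member in any library was 49.

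Expression was measured by bulk RNA sequencing of natural killer (NK) cells of the spleen, which are cytotoxic innate lymphocytes and were sorted here for NK1.1 and against CD3. The groups were mice labelled Irf4-/- studied 20 days after an intravenous injection of B16-F10 cells, which are a melanoma line of C57BL/6 origin, mice labelled Irf4-/- with no injection, wild type (WT) C57BL/6 mice injected in the same way, and WT mice with no injection. Irf4 encodes a transcription factor of lymphocytes. Each group had 1 library, with total counts between 15878159 and 21104881, and the labels give neither the number nor the age of the mice behind it. A ratio of 2 libraries therefore has no replicate check, and no p is given for one. Beside such ratios stand 95% intervals for counting error only, which may be too narrow, since PCR copies count as separate reads and the labels mention no molecular identifiers.

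The targeted gene, Irf4, had 236 and 188 counts in the injected and control libraries labelled Irf4-/-, and 57 and 93 counts in the injected and control WT libraries. It was thus higher under the knockout label. The deleted stretch is not named in the labels, so counts over the whole gene check nothing. All genotype directions given here rest on those labels. Markers of NK cells were abundant in all 4 libraries, with a summed level of 18620.5 and 18316 CPM in the injected and control libraries labelled Irf4-/- and 16869 and 16740 CPM in the injected and control WT libraries.

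Cells enter mitosis when cyclin-dependent kinase 1 is switched on by A and B cyclins, and they leave it when the anaphase-promoting complex has these cyclins and securin destroyed. The transcripts of this programme are made late in the cell cycle and are scarce in resting cells, so their summed level in a tissue is widely used as a measure of dividing cells. Most NK cells of the spleen rest, and cytokines such as interleukin 15 can drive them into division. In bulk samples, fewer dividing cells and less RNA per cell cannot be told apart.

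The mitosis genes were highest in the control library labelled Irf4-/- and lowest in the injected WT library. Their summed level was 1613 CPM in the injected and 2042 CPM in the control library labelled Irf4-/-, and 1170 CPM in the injected and 1639 CPM in the control WT library. Smc4, Mki67, Racgap1 and Top2a held 42.7% of the members' mean CPM, so these sums lean on few genes. Of the 50 members, 43 were highest in the control library labelled Irf4-/-, where 22% of 11870 genes averaging 1 CPM or more were highest. The injected WT library held the lowest level of 45 members, against 33.3% of those genes. Both injected libraries lay below both control libraries for 27 members (22.1% of all genes), and both libraries labelled Irf4-/- lay above both WT libraries for 21 members (16.7% of all genes). The order injected WT, injected Irf4-/-, control WT, control Irf4-/-, from low to high, held for 22 members, against 7.03% of all genes.

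**Figure D1:**
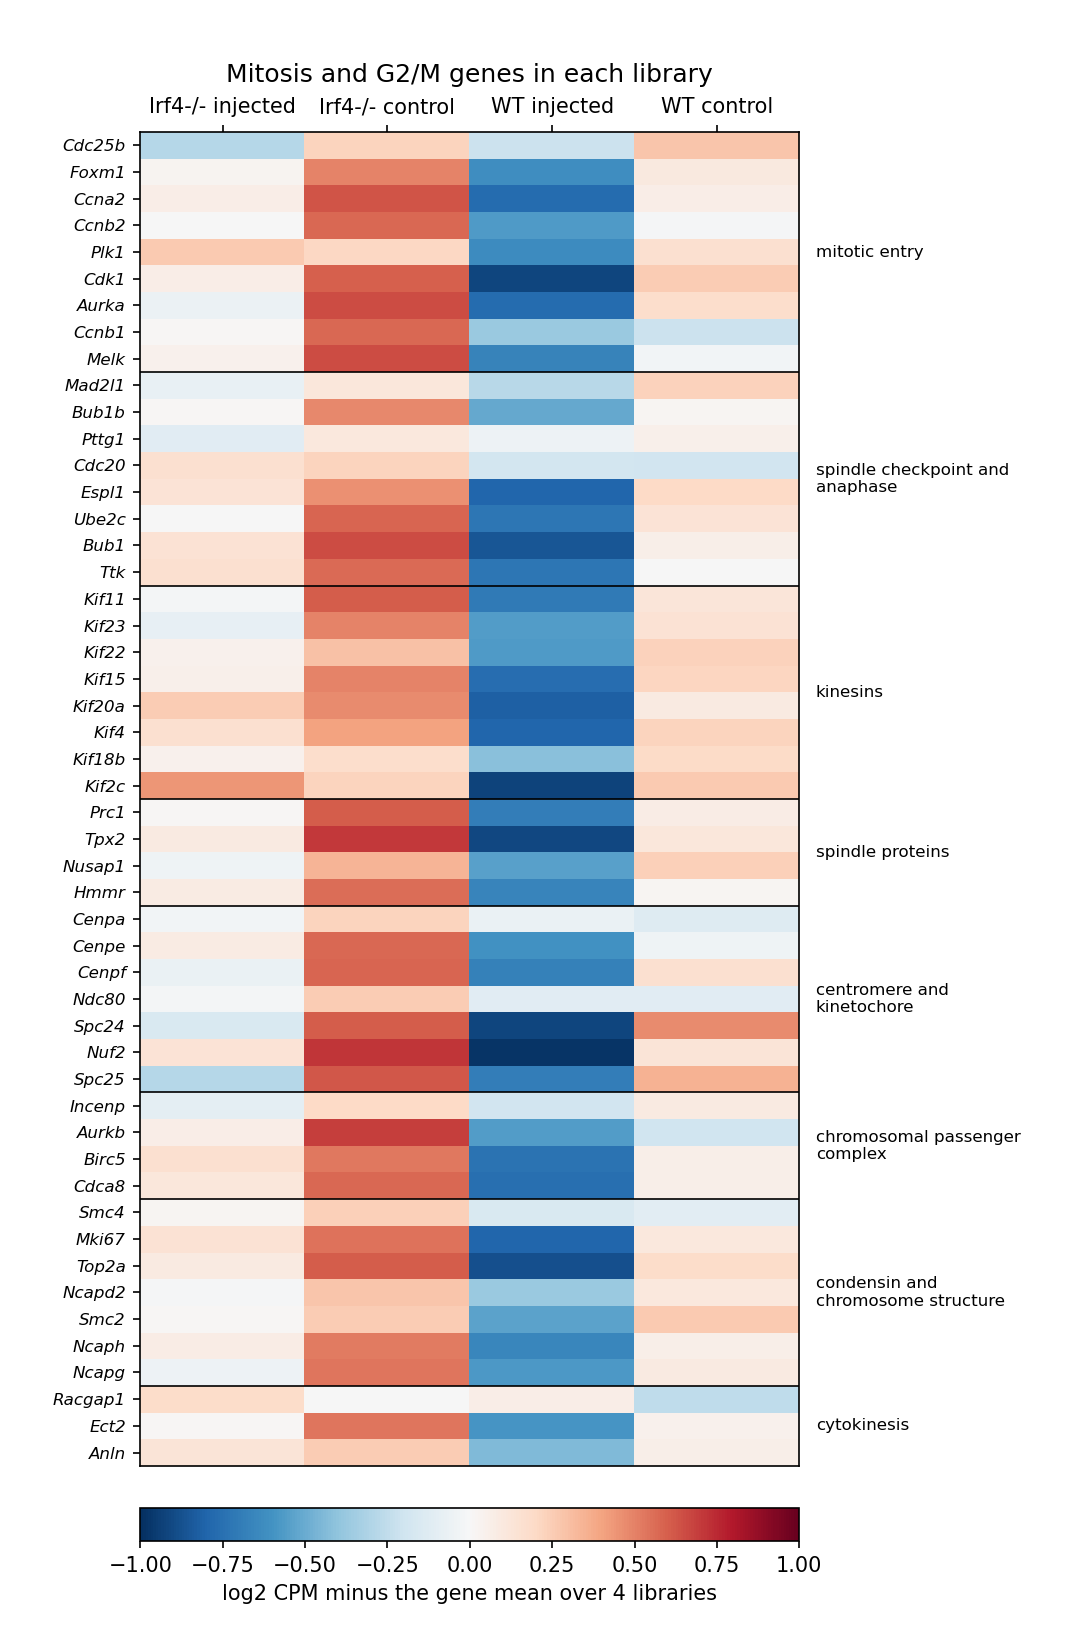
Level of each of the 50 members in the 4 libraries, as log2 CPM minus that gene's mean over the libraries, with genes in rows ordered by role and, within a role, by mean CPM. The column of the control library labelled Irf4-/- is mostly red (43 members highest there) and that of the injected WT library mostly blue (45 members lowest there).

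The genotype label and the injection were tested together, as additive terms over all 4 libraries, with edgeR's quasi-likelihood test and Benjamini-Hochberg adjustment over 11998 genes. This fit has 1 residual degree of freedom, and its error is how far the 4 libraries depart from additivity, not a spread between animals. With the Irf4-/- label 3 of 50 members rose and none fell, against 1.22% and 0.258% of all genes tested. They were Mki67, Top2a and Tpx2. The median log2 change of the members was 0.54, against 0.00 over all genes tested, and 48 of 50 members had a positive change. At an unadjusted p under 0.05 there were 34 higher members and 0 lower ones (6.03% and 4.38% of all genes), and DESeq2 and limma-voom called 2 members higher each and 0 lower. The number called depends strongly on the scaling, with 12 higher members under median-of-ratios scaling, where 2.18% of all genes were called higher and 0.942% lower.

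With injection 4 of 50 members fell and none rose, against 0.392% and 0.333% of all genes tested. They were Mki67, Top2a, Kif11 and Cdc25b. The median log2 change was -0.57, against 0.00 over all genes, and 49 of 50 members had a negative change. At an unadjusted p under 0.05 there were 38 lower members and 1 higher member, Racgap1 (6.84% and 7.33% of all genes). DESeq2 and limma-voom called 3 members lower each and 0 higher, and median-of-ratios scaling gave 21 lower members, with 1.9% of all genes called lower and 1.92% higher. With 1 library left out and the other term dropped, so that each fit compares libraries unbalanced for the other factor, the genotype count was 0 without the injected or the control library labelled Irf4-/-, 0 without the injected WT library and 31 without the control WT library. The share of all genes called higher was 0%, 0.0509%, 1.3% and 4.45% in these 4 fits. The injection count was 21 without the injected and 0 without the control library labelled Irf4-/-, and 0 without either WT library. The share of all genes called lower was 2.85% without the injected and 0.00848% without the control library labelled Irf4-/-, 0.0677% without the injected WT library and 0% without the control WT library.

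**Figure D2:**
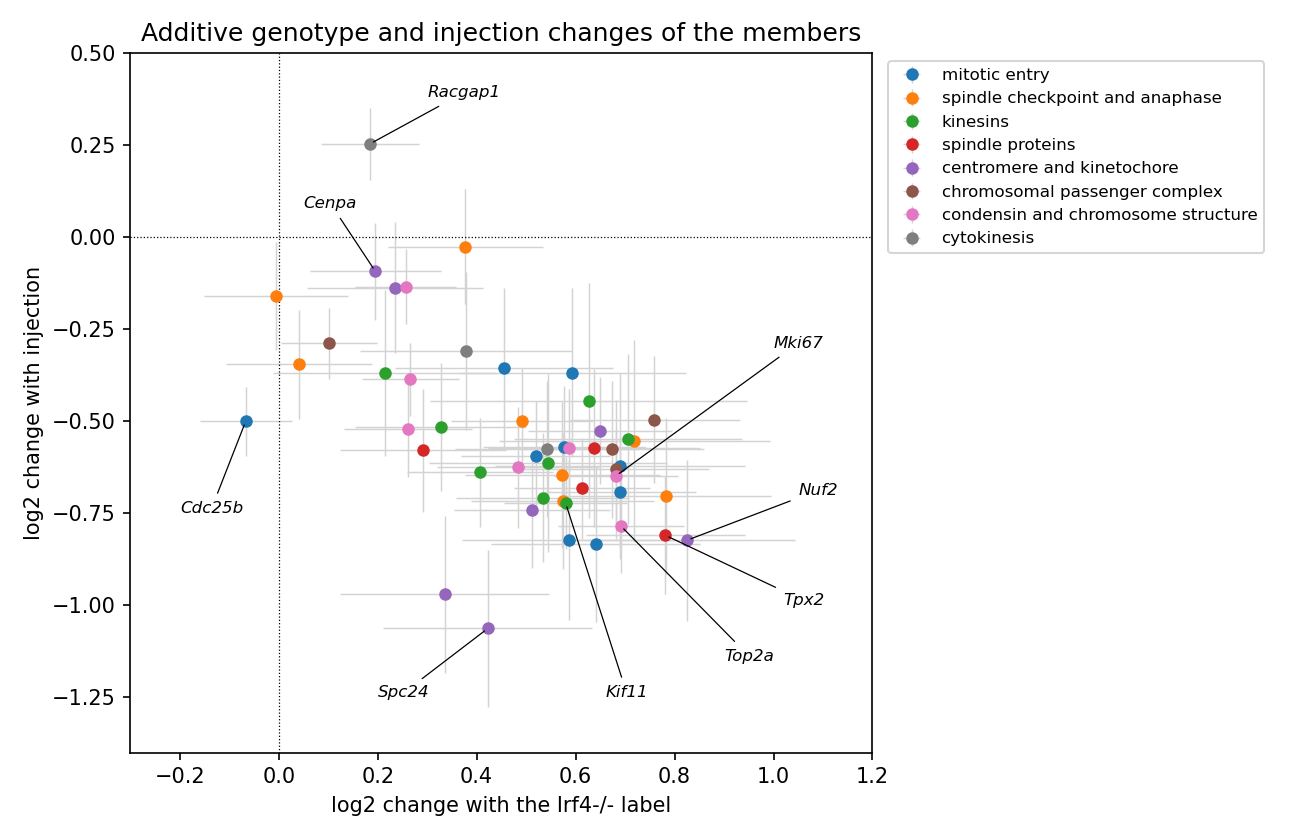
Log2 change of each member with the Irf4-/- label (x axis) and with injection (y axis) in the additive fit, coloured by role; bars are standard errors. Most points lie to the right of 0 and below 0 (medians 0.54 and -0.57); Racgap1 lies above 0 on the injection axis and Cdc25b left of 0 on the genotype axis.

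Mki67, which encodes the Ki-67 protein that coats mitotic chromosomes, had 200.3 and 264.7 CPM in the injected and control libraries labelled Irf4-/-, and 104.9 and 195.7 CPM in the injected and control WT libraries. Mki67 rose with the genotype label by a log2 value of 0.68 (SE 0.125, adjusted p 0.0230 by edgeR) and fell with injection by 0.65 (SE 0.125, adjusted p 0.0480). The injected WT library was the low one and the control library labelled Irf4-/- the high one, while the other two lay close together. Top2a, the topoisomerase that untangles sister chromosomes, was also highest in the control library labelled Irf4-/- and lowest in injected WT, with 130.0 and 185.8 CPM in the injected and control libraries labelled Irf4-/- and 66.3 and 138.5 CPM in the injected and control WT libraries. Top2a rose with the genotype label by 0.69 (SE 0.127, adjusted p 0.0230 by edgeR) and fell with injection by 0.78 (SE 0.127, adjusted p 0.0225). These additive values combine unlike ratios between single libraries. The log2 genotype ratios in injected and control mice were 0.93 and 0.44 for Mki67, and 0.97 and 0.42 for Top2a. The log2 injection ratios under the Irf4-/- label and in WT were -0.40 and -0.90 for Mki67, and -0.51 and -1.06 for Top2a.

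Tpx2, a spindle protein that activates the Aurora A kinase, had 20.3 and 31.2 CPM in the injected and control libraries labelled Irf4-/-, and 10.2 and 20.7 CPM in the injected and control WT libraries. It rose with the genotype label by 0.78 (SE 0.161, adjusted p 0.0417 by edgeR), but its adjusted p was 0.115 by DESeq2 and 0.0519 by limma-voom. Its injection change was -0.81 (SE 0.161, adjusted p 0.0535), which misses the threshold. Kif11, the kinesin that pushes the spindle poles apart, had 34.6 and 53.3 CPM in the injected and control libraries labelled Irf4-/-, and 21.5 and 38.1 CPM in the injected and control WT libraries. It fell with injection by 0.72 (SE 0.125, adjusted p 0.0313 by edgeR), and its genotype change was 0.58 (adjusted p 0.0527).

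Cdc25b, the phosphatase that helps to switch on CDK1 at mitotic entry, passed the injection test and not the genotype test. It had 72.3 and 102.8 CPM in the injected and control libraries labelled Irf4-/-, and 76.1 and 107.1 CPM in the injected and control WT libraries. The injected libraries were the low ones in both genotypes and the pairs did not overlap. Cdc25b fell with injection by 0.50 (SE 0.0933, adjusted p 0.0429 by edgeR, 0.101 by DESeq2 and 0.0521 by limma-voom), and its genotype change was -0.07 (SE 0.0932, adjusted p 0.900). With 1 library left out and the injection term dropped, the sign of that genotype change turned, to 0.17 without the injected library labelled Irf4-/- and 0.20 without the control WT library. On GRCm38 (mm10) the annotation places Mki67 at chr7:135689784-135716361, Top2a at chr11:98992943-99024189, Tpx2 at chr2:152847964-152895321, Kif11 at chr19:37376403-37421859 and Cdc25b at chr2:131186949-131198497.

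**Figure D3:**
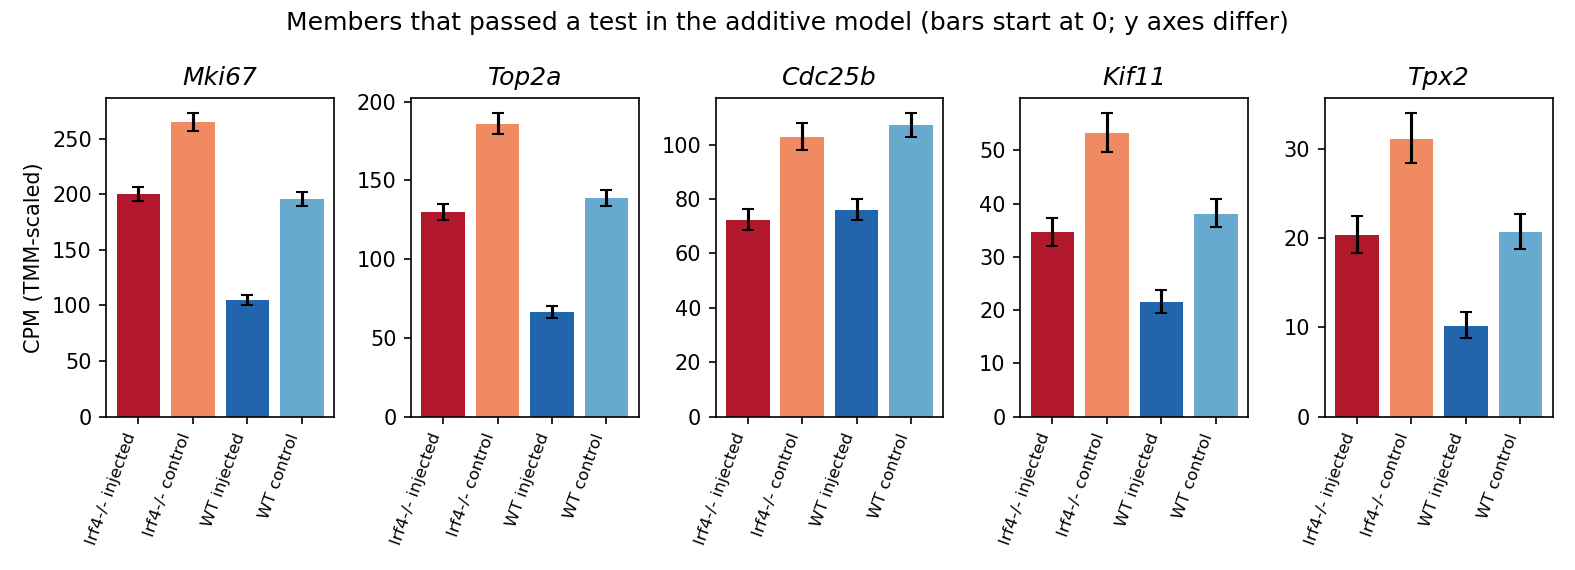
CPM of the 5 members that passed a test in the additive fit, in each library, with exact Poisson 95% intervals for counting error; each panel has its own y axis, starting at 0. In Mki67, Top2a, Kif11 and Tpx2 the injected WT bar is the lowest and the Irf4-/- control bar the highest, while in Cdc25b both injected bars are low (72.3 CPM under the Irf4-/- label and 76.1 CPM in WT).

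Genes of G2/M are known to share a pair of promoter elements, the CCAAT box bound by NF-Y and the cell cycle genes homology region (CHR), which is bound by MuvB complexes that repress the genes in resting cells and, with B-MYB and FOXM1, activate them in dividing cells. The promoters of the members that passed a test are shown because the tested results turn on these genes. They are the 250 bases before the start in RefSeq on GRCm38.p6, 5′ to 3′ on the gene's strand, with CCAAT (or its reverse complement ATTGG) and TTTGAA or TTCGAA (or the reverse complements TTCAAA and TTCGAA) in capitals; Tpx2 is not shown. Mki67 lies on the minus strand at chr7:135716380-135716629, Top2a on the minus strand at chr11:99024190-99024439, Kif11 on the plus strand at chr19:37376132-37376381 and Cdc25b on the plus strand at chr2:131186698-131186947.
Mki67: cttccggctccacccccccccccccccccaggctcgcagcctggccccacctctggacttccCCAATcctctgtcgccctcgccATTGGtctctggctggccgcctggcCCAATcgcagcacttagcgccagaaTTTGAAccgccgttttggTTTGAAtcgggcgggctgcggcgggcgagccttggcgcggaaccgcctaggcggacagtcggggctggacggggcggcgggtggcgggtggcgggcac
Top2a: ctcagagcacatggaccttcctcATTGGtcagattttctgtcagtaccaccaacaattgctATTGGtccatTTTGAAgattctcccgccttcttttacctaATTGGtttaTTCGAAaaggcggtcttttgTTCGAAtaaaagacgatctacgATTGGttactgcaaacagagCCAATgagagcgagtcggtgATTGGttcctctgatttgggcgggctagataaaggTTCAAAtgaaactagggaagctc
Kif11: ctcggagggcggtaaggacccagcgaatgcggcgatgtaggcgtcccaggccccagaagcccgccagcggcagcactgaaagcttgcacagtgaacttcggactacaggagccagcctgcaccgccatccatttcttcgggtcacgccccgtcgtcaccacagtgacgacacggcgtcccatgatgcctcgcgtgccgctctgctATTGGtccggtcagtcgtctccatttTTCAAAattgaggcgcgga
Cdc25b: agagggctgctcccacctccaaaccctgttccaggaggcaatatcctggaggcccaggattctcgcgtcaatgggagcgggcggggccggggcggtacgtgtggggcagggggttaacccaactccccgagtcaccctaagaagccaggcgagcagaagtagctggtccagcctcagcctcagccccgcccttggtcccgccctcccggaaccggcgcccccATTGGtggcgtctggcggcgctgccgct

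Top2a held the most matches of these promoters, with 6 of the CCAAT letters and 4 of the CHR letters, and Mki67 held 3 and 2. Kif11 had 1 of each before its start. Cdc25b had 1 CCAAT match before the start and 1 CHR match beginning 8 bases after it. Over the stretch from 250 bases before to 50 after the start, searched on both strands, 42 of the 50 members were in the promoter table, and 29 of these, or 69.0%, held both motifs. Both were found in 7.13% of the 9019 genes in the table averaging 1 CPM or more. The CCAAT letters alone were found in 73.8% of the members and 43.0% of those genes, and the CHR letters in 78.6% and 16.7%. Members with both motifs had a median genotype change of 0.54 and a median injection change of -0.61, against 0.59 and -0.53 in the 13 without. A match is a description of the letters and not of binding.

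In pairs of libraries the members were compared by the log2 ratio of CPM, and a member was counted as higher or lower when the ratio reached 1.5-fold with a counting interval that excluded 1. The genotype pair of injected mice set the Irf4-/- label against WT after tumour cells had been given. In it 30 of 50 members were higher and 0 lower, against 5.88% and 4.95% of all genes, with a median log2 ratio of 0.66. The ratio was positive in 48 (49.5% of all genes), with the counting interval above 0 in 44 (25%). In control mice the same comparison gave 6 higher members and 0 lower, against 3.88% and 1.67%, with a median of 0.40. Here 45 were positive (49.9%), and 37 had intervals above 0 (17.1%). That pair holds no injected library. The 6 were Aurkb, Bub1, Ccnb1, Cenpe, Melk and Tpx2.

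The injection pairs asked how splenic NK cells taken at day 20 compared with those of mice without tumour cells. In mice labelled Irf4-/- 10 of 50 members were lower and 0 higher, against 2.82% and 2.91% of all genes, with a median log2 ratio of -0.46. The ratio was negative in 47 (49.7% of all genes), with the interval below 0 in 40 (19%). In WT mice 34 members were lower and 0 higher, against 5.93% and 7.15%, with a median of -0.74. There 47 were negative (50.1%), and 43 had intervals below 0 (28%). At 2-fold 3 members were higher in the genotype pair of injected mice (2.05% of all genes) and 0 in that of controls (1.62%). With injection 0 were lower at 2-fold under the Irf4-/- label (0.96%) and 7 in WT (1.75%). The WT injection pair and the genotype pair of injected mice share the injected WT library. The Irf4-/- injection pair and the genotype pair of controls share the control library labelled Irf4-/-. Every library stands in both a genotype pair and an injection pair, so the values of these pairs are not separate observations.

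**Figure D4:**
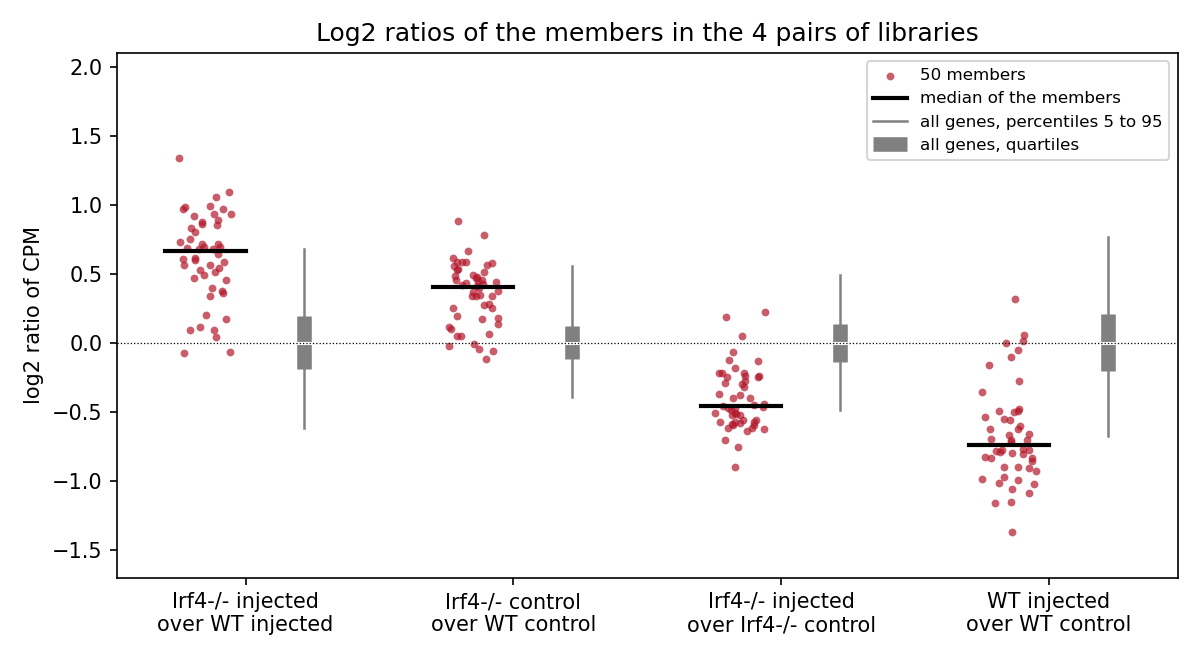
Log2 ratios of the 50 members (points) in 4 pairs of libraries, with the median of the members as a black line; grey bars give the quartiles and the percentiles 5 to 95 of all 11870 genes averaging 1 CPM or more. The members' medians are 0.66 and 0.40 in the genotype pairs and -0.46 and -0.74 in the injection pairs, outside the quartiles of all genes in each.

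The difference of the injection responses, the log2 ratio under the Irf4-/- label minus that in WT, had a median of 0.26 over the members and was positive in 39 of 50, against 50.5% of all genes. Its counting interval lay above 0 for 19 members and below 0 for 3, against 20.6% and 20.8% of all genes. With 1 library in each group this difference could not be tested. It was largest for Kif2c, at 1.38 (counting SE 0.282), followed by Plk1 at 0.83 (counting SE 0.196) and Kif4 at 0.75. For Top2a and Mki67, which passed both tests, it was 0.55 (counting SE 0.0630) and 0.50 (counting SE 0.0512). Ccnb1, Cenpa and Ndc80 had the most negative values, -0.40, -0.30 and -0.27 (counting SE 0.254, 0.117 and 0.184). The intervals of Ccnb1 and Ndc80 included 0. The 3 members with an interval below 0 were Cenpa, Smc4 at -0.17 (counting SE 0.047) and Racgap1 at -0.13 (counting SE 0.053).

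Among the genes of mitotic entry, Cdk1, the kinase that drives it, had 10.9 and 15.7 CPM in the injected and control libraries labelled Irf4-/-, and 5.50 and 12.4 CPM in the injected and control WT libraries. Ccna2, which encodes cyclin A, had 20.7 and 30.5 CPM in the injected and control libraries labelled Irf4-/-, and 11.6 and 20.7 CPM in the injected and control WT libraries. Both were lowest in injected WT, with log2 injection ratios in WT of -1.16 (-1.52 to -0.84) for Cdk1 and -0.83 for Ccna2. The B cyclins Ccnb2 and Ccnb1 had smaller WT ratios, -0.55 and -0.16. Foxm1, a transcription factor of G2/M genes, had 20.6 and 28.7 CPM in the injected and control libraries labelled Irf4-/-, and 13.2 and 21.7 CPM in the injected and control WT libraries. It too was lowest in injected WT. Plk1, a kinase of mitotic entry and spindle assembly, was similar in 3 libraries and low in injected WT, at 14.6 and 14.1 CPM in the injected and control libraries labelled Irf4-/- and 7.93 and 13.7 CPM in the injected and control WT libraries.

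The spindle checkpoint and anaphase genes were split. Bub1, a checkpoint kinase of the kinetochore, had 9.60 and 13.7 CPM in the injected and control libraries labelled Irf4-/-, and 4.80 and 9.07 CPM in the injected and control WT libraries, and Bub1b, its relative in the checkpoint complex, had 21.9 and 30.2 CPM in the injected and control libraries labelled Irf4-/-, and 15.2 and 21.98 CPM in the injected and control WT libraries. Both were lowest in injected WT. In the WT injection pair 4 of the 8 were at least 1.5-fold lower (5.93% of all genes). They were Bub1, Ttk, the separase gene Espl1 and Ube2c, which encodes an enzyme of the anaphase-promoting complex. By contrast Pttg1, which encodes securin, had 19.5 and 22.7 CPM in the injected and control libraries labelled Irf4-/-, and 20.4 and 21.9 CPM in the injected and control WT libraries. Mad2l1, the checkpoint protein that holds Cdc20, had 22.1 and 25.1 CPM in the injected and control libraries labelled Irf4-/-, and 19.2 and 27.2 CPM in the injected and control WT libraries. Cdc20, the activator of the anaphase-promoting complex, had a WT injection ratio of 0.01 and a genotype ratio of 0.34 in injected mice. It overlaps Elovl1 (mean 86.5 CPM) on the opposite strand, and whether counting used strand is not given, so its reads cannot be assigned with certainty.

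All 8 kinesins were at least 1.5-fold lower in the WT injection pair (5.93% of all genes), with log2 ratios between -1.16 for Kif2c and -0.60 for Kif18b. In mice labelled Irf4-/- 1 of 8, Kif11, was so (2.82% of all genes). The 8 kinesins had a median difference of response of 0.53 and were positive in 8 of 8 (50.5% of all genes). Kif2c, which takes microtubules apart at the kinetochore, had 8.37 and 7.16 CPM in the injected and control libraries labelled Irf4-/-, and 3.24 and 7.37 CPM in the injected and control WT libraries. It was thus low in injected WT alone, and its log2 genotype ratio in injected mice, 1.34 (0.93 to 1.83), was the largest of the 50 members. Kif23, the kinesin of the central spindle, had 19.1 and 28.5 CPM in the injected and control libraries labelled Irf4-/-, and 13.8 and 22.4 CPM in the injected and control WT libraries. Kif22, a kinesin that binds chromosome arms, had 19.1 and 22.7 CPM in the injected and control libraries labelled Irf4-/-, and 12.6 and 21.7 CPM in the injected and control WT libraries. Kif18b, a kinesin of microtubule ends, had the smallest genotype ratio of the kinesins in injected mice, 0.46, with 8.10 and 8.86 CPM in the injected and control libraries labelled Irf4-/- and 5.88 and 8.98 CPM in the injected and control WT libraries. Kif23, Kif22 and Kif18b were all lowest in injected WT.

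Of the spindle proteins beside Tpx2, Prc1, which bundles the microtubules of the central spindle, had 25.4 and 38.5 CPM in the injected and control libraries labelled Irf4-/-, and 15.6 and 26.7 CPM in the injected and control WT libraries. Nusap1, a microtubule-binding protein of the spindle, had 16.7 and 21.7 CPM in the injected and control libraries labelled Irf4-/-, and 11.8 and 20.3 CPM in the injected and control WT libraries. Both were lowest in injected WT and highest in the control library labelled Irf4-/-. All 4 spindle genes, Hmmr included, were at least 1.5-fold lower in the WT injection pair (5.93% of all genes).

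Within the kinetochore the subunits of the Ndc80 complex, which ties chromosomes to microtubules, differed from each other. Nuf2 had 9.44 and 14.1 CPM in the injected and control libraries labelled Irf4-/-, and 4.37 and 9.41 CPM in the injected and control WT libraries. The WT injection ratios of Spc24, Nuf2 and Spc25 were -1.37 (-1.73 to -1.06), -1.09 and -1.02, and that of Spc24 was the most negative of the 50 members. Ndc80 itself had a ratio of 0.00 in the same pair, with 13.1 and 15.8 CPM in the injected and control libraries labelled Irf4-/- and 12.2 CPM in both WT libraries. Cenpa, the histone that marks the centromere, also had a WT injection ratio near 0, at 0.06 (-0.11 to 0.22). It had 32.5 and 38.5 CPM in the injected and control libraries labelled Irf4-/- and 31.5 and 30.3 CPM in the injected and control WT libraries. Its genotype ratio in control mice was 0.34 (0.18 to 0.51), and its injection ratio under the Irf4-/- label was -0.24 (-0.41 to -0.08). Cenpe, a kinesin of the kinetochore, had 22.04 and 31.0 CPM in the injected and control libraries labelled Irf4-/-, and 13.7 and 20.2 CPM in the injected and control WT libraries. Cenpf had 16.4 and 25.6 CPM in the injected and control libraries labelled Irf4-/-, and 10.7 and 19.1 CPM in the injected and control WT libraries. Both Cenpe and Cenpf were lowest in injected WT and highest in the control library labelled Irf4-/-.

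The chromosomal passenger complex corrects faulty attachments through the Aurora B kinase. Its kinase gene, Aurkb, had 14.5 and 22.4 CPM in the injected and control libraries labelled Irf4-/-, and 9.44 and 12.1 CPM in the injected and control WT libraries, and its genotype ratio in control mice, 0.88 (0.65 to 1.12), was the largest of the members in that pair. Birc5, which encodes survivin, had 14.4 and 18.6 CPM in the injected and control libraries labelled Irf4-/-, and 7.71 and 13.4 CPM in the injected and control WT libraries. Both genes were lowest in injected WT. The scaffold gene Incenp was the most abundant of the 4, with 60.3 and 74.3 CPM in the injected and control libraries labelled Irf4-/- and 56.7 and 68.7 CPM in the injected and control WT libraries. Its genotype ratios were 0.09 in injected and 0.11 in control mice.

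Smc4 and Smc2, the core ATPases of condensin, had unlike ratios. Smc4 had 207.3 and 241.5 CPM in the injected and control libraries labelled Irf4-/-, and 184.2 and 190.5 CPM in the injected and control WT libraries, with a WT injection ratio of -0.05. For Smc2 that ratio was -0.80. The condensin subunits Ncaph, Ncapg and Ncapd2 had WT injection ratios of -0.71, -0.66 and -0.48, and genotype ratios of 0.72, 0.52 and 0.36 in injected mice.

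Among the cytokinesis genes Racgap1, the centralspindlin partner of Kif23, had injection ratios of the opposite sign to most members. It had 183.1 and 161.0 CPM in the injected and control libraries labelled Irf4-/-, and 168.8 and 135.2 CPM in the injected and control WT libraries. Each injected library was above its control, by log2 ratios of 0.19 (0.11 to 0.26) under the Irf4-/- label and 0.32 (0.25 to 0.39) in WT, but the additive change of 0.25 (SE 0.0985) had an adjusted p of 0.278 by edgeR. Ect2, the exchange factor that switches on RhoA at the division plane, had 10.99 and 15.8 CPM in the injected and control libraries labelled Irf4-/-, and 7.28 and 11.2 CPM in the injected and control WT libraries. Anln, which encodes the scaffold anillin, had 9.22 and 10.1 CPM in the injected and control libraries labelled Irf4-/-, and 6.20 and 8.79 CPM in the injected and control WT libraries. Ect2 and Anln were lowest in injected WT and highest in the control library labelled Irf4-/-.

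Per length of transcript, on the deposited FPKM scale, Smc4 was the most abundant member with a mean of 47.7, followed by Racgap1 with 36.2 and Cdc25b with 29.0. The median of the members was 5.32 FPKM, and Anln was the lowest with 1.58 FPKM. The 25 members of lower mean CPM had a median genotype change of 0.59 and the 25 of higher mean CPM one of 0.41. Their median injection changes were -0.58 and -0.53. Beside Cdc20, 8 members overlap an expressed gene on the opposite strand, and their reads have the same limit. They are Cdc25b with Spef1 (mean 3.24 CPM), Kif20a with Cdc23 (mean 49.5 CPM) and Ccna2 with Exosc9 (mean 18.8 CPM). Prc1 overlaps Rccd1 (mean 19.5 CPM), Nusap1 overlaps Oip5 (mean 1.15 CPM) and Kif4 overlaps Pdzd11 (mean 10.1 CPM). Cdca8 overlaps 9930104L06Rik (mean 29.8 CPM) and Ncapg overlaps Lcorl (mean 18.7 CPM).

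Other lists of the pathway had smaller median changes. Of 89 further mitosis genes, which include anaphase-promoting complex and cohesin subunits, none passed either test by edgeR, DESeq2 or limma-voom. At an unadjusted p under 0.05 by edgeR there were 28 higher and 0 lower with the genotype label (6.03% and 4.38% of all genes). With injection there were 28 lower and 1 higher (6.84% and 7.33%). Their median log2 changes were 0.16 with the genotype label and -0.32 with injection. In the list of 21 regulators of G2/M transcription 1 rose with the genotype label and 0 fell by edgeR (1.22% and 0.258% of all genes). This was E2f2, an activating E2F factor, with a change of 1.09 (SE 0.178, adjusted p 0.0121 by edgeR), and DESeq2 called none. At an unadjusted p under 0.05 by edgeR 4 were higher and 1 lower with the genotype label (6.03% and 4.38%). E2f2 had 63.9 and 74.8 CPM in the injected and control libraries labelled Irf4-/-, and 21.5 and 47.6 CPM in the injected and control WT libraries. None of the 21 passed the injection test by any of these tools. At an unadjusted p under 0.05 by edgeR 6 were lower and 1 higher (6.84% and 7.33% of all genes).

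In the list of G1 cyclins and CDK inhibitors 1 of 13 tested genes rose with the genotype label and 0 fell by edgeR (1.22% and 0.258% of all genes). This was Cdkn2c, an inhibitor of CDK4 and CDK6, with a change of 0.65 (SE 0.123, adjusted p 0.0280 by edgeR), and DESeq2 called none. At an unadjusted p under 0.05 by edgeR 2 were higher and 1 lower with the genotype label (6.03% and 4.38%). Cdkn2c had 44.3 and 40.9 CPM in the injected and control libraries labelled Irf4-/-, and 29.2 and 25.3 CPM in the injected and control WT libraries. None of the 13 passed the injection test by edgeR, DESeq2 or limma-voom. At an unadjusted p under 0.05 by edgeR 6 were lower and 1 higher (6.84% and 7.33% of all genes). Of 40 DNA replication genes 1 rose with the genotype label and 1 fell with injection (1.22% and 0.392% of all genes). In both cases this was Rrm2, a subunit of ribonucleotide reductase. At an unadjusted p under 0.05 by edgeR, 6 of the 40 were higher and 1 lower with the genotype label (6.03% and 4.38% of all genes). With injection 21 were lower and 0 higher (6.84% and 7.33%). Rrm2 had 41.7 and 59.1 CPM in the injected and control libraries labelled Irf4-/-, and 17.7 and 41.6 CPM in the injected and control WT libraries, with changes of 0.85 (SE 0.163, adjusted p 0.0283 by edgeR) with the genotype label and -0.85 (SE 0.163, adjusted p 0.0480) with injection.

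The replication list had smaller median genotype ratios than the mitosis members. In the control genotype pair the replication list had a median log2 ratio of 0.01 with 22 of 40 genes positive, where the mitosis members had 0.40 with 45 of 50 positive. In injected mice the medians were 0.29 for the replication list and 0.66 for the mitosis members. The replication list was also lower with injection. In WT its median log2 ratio was -0.48, with 36 of 40 negative (50.1% of all genes). Under the Irf4-/- label it was -0.15, with 33 of 40 negative (49.7%). The mitosis members had medians of -0.74 and -0.46 in the same pairs. The ratio of summed CPM, mitosis members over replication genes, was 0.822 and 0.949 in the injected and control libraries labelled Irf4-/-, and 0.710 and 0.767 in the injected and control WT libraries.

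Markers of other cells of the spleen also differed between the libraries. The 9 B cell markers summed to 53.1 and 74.5 CPM in the injected and control libraries labelled Irf4-/-, and 30.5 and 69.7 CPM in the injected and control WT libraries. From low to high these sums ran injected WT, injected Irf4-/-, control WT, control Irf4-/-, which is also the order of the mitosis sums. Their median log2 ratios were 0.76 and 0.30 in the genotype pairs of injected and control mice. In the injection pairs they were -0.58 under the Irf4-/- label and -1.31 in WT. Of these 9 markers, 8 were at least 1.5-fold lower in the WT injection pair (5.93% of all genes), and 0 were at 0 in any library. The 11 macrophage and monocyte markers went the opposite way with injection, with sums of 74.1 and 60.8 CPM in the injected and control libraries labelled Irf4-/- and 90.2 and 39.5 CPM in the injected and control WT libraries. In the injection test Vcam1 and C1qc rose and Lyz2 and the B cell gene Fcer2a fell by edgeR. The part of these cells in the mitosis result was not tested. The smallest summed level of the mitosis members in any library was 1170 CPM, but sums over lists of different genes do not give shares of cells.

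The 13 erythroid markers, of a lineage that divides in the spleen, summed to 111.3 and 50.6 CPM in the injected and control libraries labelled Irf4-/-, and 23.9 and 41.0 CPM in the injected and control WT libraries, mostly globin transcripts. Of 7 averaging 1 CPM or more, 5 were at least 1.5-fold higher and 1 lower in the genotype pair of injected mice (5.88% and 4.95% of all genes). With injection under the Irf4-/- label 5 were higher and 1 lower (2.91% and 2.82%), with log2 ratios from 1.45 for Alas2 to -1.26 for Slc4a1. In the WT injection pair 1 was higher and 5 lower (7.15% and 5.93%). The precursor genes Klf1, Epor and Gata1 were each at or near 1 CPM or below in all 4 libraries. Gata1 and Rhag were at 0 in the injected library labelled Irf4-/-. The 10 granulocyte precursor markers summed to between 0.4 and 1.1 CPM, with Mpo and Ctsg at 0 in all libraries. The 6 plasma cell markers summed to between 170.7 and 201.6 CPM, nearly all from Xbp1 and Prdm1, with Tnfrsf17 at 0. That sum hides Jchain, whose log2 genotype ratio was -3.71 in injected and 0.42 in control mice. Its injection ratio under the Irf4-/- label was -4.10. No gene of this list passed either additive test by edgeR. The 10 T cell markers lay between 491.3 and 540.5 CPM, the 7 dendritic cell markers between 17.1 and 22.5 CPM and the 6 platelet markers between 13.3 and 22.7 CPM. Of the melanoma markers Mlana, Tyr, Dct and Tyrp1 were at 0 in every library.

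**Figure D5:**
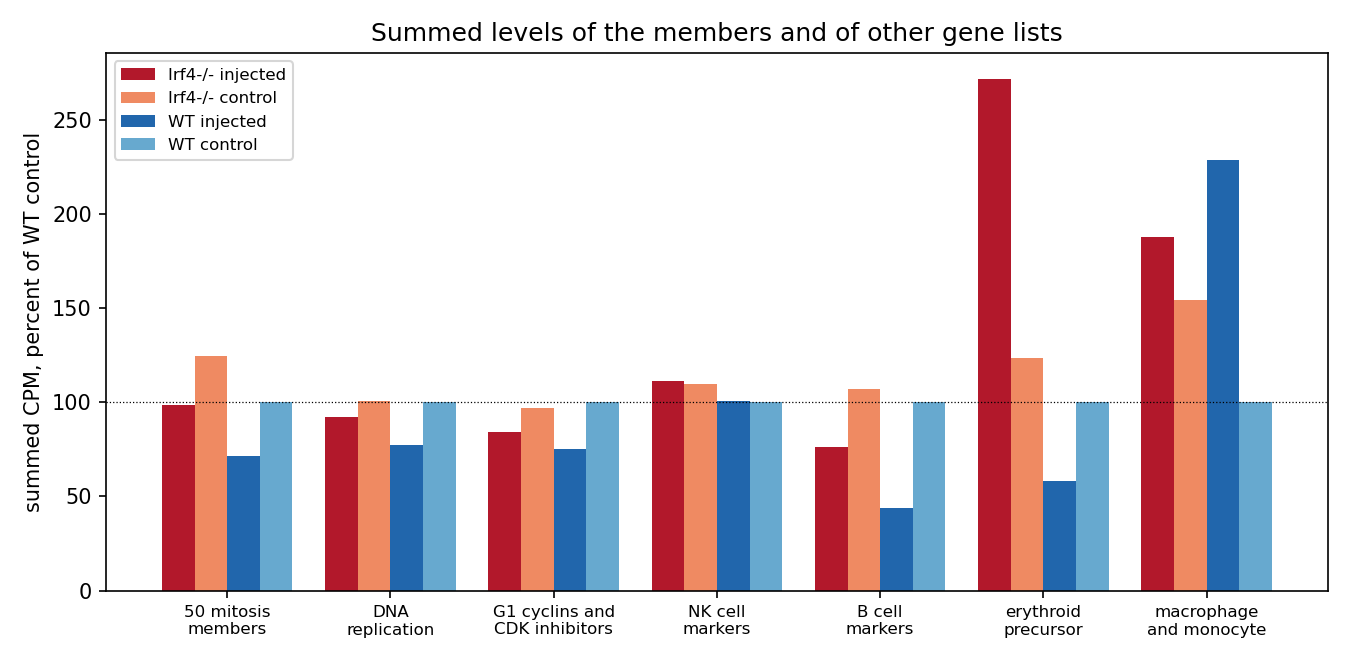
Summed CPM of the 50 mitosis members, of other cell cycle lists and of marker lists in the 4 libraries, each as a percentage of the WT control library, which is 100 by construction. The mitosis members stand lowest in injected WT (1170 CPM, against 1639 CPM in WT control). The B cell markers are also lowest there (30.5 CPM, against 69.7 CPM in WT control) and have the same order of libraries as the members. NK markers stay close to 100, and the erythroid and macrophage lists, of far lower level, range widely.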

How the data were processed

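Libraries were made with a SMARTER mRNA kit from RNA of sorted splenic NK cells, per the labels' protocols. The authors deposited a table of raw counts per gene and a table of FPKM values, which are scaled for gene length and depth. TopHat, edgeR and the build mm10 are named in the submitters' processing notes; versions, the counting tool and whether it used strand are not given there. Of 35275 identifiers, 785 matched no symbol, and they held 0.0871 to 0.0887% of the counts. The deposited counts were tested with edgeR 4.0.16 (quasi-likelihood, TMM scaling on the genes tested, at least 1 CPM in 2 libraries, adjusted p threshold 0.05), with genotype label and injection as additive terms. DESeq2 1.42.0 and limma 3.58.1 were alternatives. Pairs were compared by log2 ratios of CPM with a prior count of 2 and exact (Clopper-Pearson) 95% counting intervals. FPKM values were used to compare levels between genes and, as log2(FPKM + 0.1), in an alternative run of the members' median pair ratios. The scripts were tested on simulated data. The labels do not say whether libraries came from 1 or several animals.

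The members and lists were chosen with earlier results of these data known. Values in every library are given for the 3 members of highest mean CPM in each of 8 role groups, for those that passed a test, and for those of largest and smallest genotype ratio in injected mice in each group. Plk1 and Ndc80 were added after their values were seen. Genes of other lists are named where they passed a test.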

Additional observations from a re-analysis of the deposited data

How the results depend on the processing

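The members' medians and the changes of the genes that passed a test kept their sign under every alternative run. The genotype change of Cdc25b, which passed no genotype test, did not (0.17 without injected Irf4-/- and 0.20 without control WT), and members with a positive genotype change, 48 as reported, were 50, 44, 40 and 50 without injected Irf4-/-, control Irf4-/-, injected WT and control WT. The members' medians in the pairs and in the difference of response moved by less than their spread. Counts of calls did move. The members that rose with the genotype label, 3 as reported (1.22% of all genes), were 12 with median-of-ratios scaling (2.18%), 8 with upper-quartile scaling (1.51%), 8 with library totals (1.7%), 14 with no low-count filter (1.48%), 8 with a filter at 5 CPM (1.62%), 8 at an adjusted p under 0.1 (1.58%) and 0 with the injection term left out (0.025%). Those that fell with injection, 4 as reported (0.392%), were 21 (1.9%), 10 (0.75%), 14 (1.25%), 27 (1.39%), 10 (0.881%) and 11 (121 of 11998 genes) under the same settings, and 0 with the genotype term left out (0%). TMM factors over all genes, chosen after seeing the data, gave 13 and 25, with 96.8 prior degrees of freedom against 9.62, and called 299 genes higher and 146 lower with the genotype label against 146 and 31, and 299 and 292 with injection against 40 and 47. Leaving out each library, with the other term dropped, gave 0 to 31 genotype calls and 0 to 21 injection calls, with genotype medians of 0.73 without injected Irf4-/-, 0.26 without control Irf4-/-, 0.19 without injected WT and 0.96 without control WT, and injection medians of -0.94, -0.35, -0.24 and -0.77 without the same libraries. At 2-fold the pairs gave 3 higher (genotype, injected mice), 0 (genotype, control mice), 0 lower (injection, Irf4-/-) and 7 lower (injection, WT). The cause was not tested. No paired analysis was possible because each group has 1 library and the labels carry no replicate numbers. The changes of Tpx2 and Cdc25b lost their call under 6 of 14 alternatives, and those of Mki67, Top2a and Kif11 under 4. Depth limits the ratios: the median half-width of the members' counting intervals was 0.27 on the log2 scale in the injected genotype pair.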
